A study of Saccharomyces cerevisiae with 24 samples.

Results

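Addition of the yhp1-13A phosphomutant to yeast that already carried yox1-9A was examined by comparing the 3 yhp1-13A yox1-9A samples with the 3 yox1-9A samples of an RNA-seq experiment. All genes with a mean of at least 1 TPM (a transcript level scaled for gene length and sequencing depth) over the 12 samples of the phosphomutant set were compared, which gave 6316 of the 7126 genes in the table. The 6 samples are part of a series of 24 from Saccharomyces cerevisiae, with 3 replicates in each group. The other groups used below were wild type and yhp1-13A from the same set, and yox1Δ and yhp1Δ yox1Δ from a second set with its own table. Each sample was total RNA from asynchronous cells in YM-1, a rich medium, with 2% dextrose.

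Every strain was MATa and, by its label, carried met15∆0, his3∆0, leu2∆0 and ura3∆0, and each group was a single named strain, so differences between clones cannot be told apart from those between alleles. The yox1-9A strain was labelled yox1-9A-3V5-KanMx, with no change named at YHP1. The double mutant carried yox1-9A-3V5-KanMx and yhp1-13A-13MYC-LEU2. It therefore differed from yox1-9A by the phosphosite mutations of YHP1, by a 13MYC tag and by the LEU2 marker that selects for the tag. These 3 changes entered together and cannot be told apart in this comparison. Wild type was YOX1-3V5-KanMx YHP1-13MYC-LEU2, and yhp1-13A carried yhp1-13A-13MYC-LEU2 with no tag named at YOX1. In the deletion set, the pair with the closest layout was yox1∆::KanMX and yox1∆::NatMX yhp1∆::LEU2, which also differed at YHP1 and by LEU2.

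Yhp1 and Yox1 are homeodomain repressors that act with Mcm1 at promoters of genes transcribed around mitosis and early in the cell cycle, and cyclin-dependent kinase phosphorylates both. Leucine is made from the valine pathway through isopropylmalate, in steps that Leu4 and Leu9, Leu1, Leu2 and the aminotransferases Bat1 and Bat2 carry out. The regulator Leu3 binds promoters of this pathway and activates them when α-isopropylmalate, the product of Leu4 and Leu9, is present. A strain with LEU2 can complete the pathway, whereas a leu2∆0 strain takes up its leucine from the medium.

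Leu3 binding sites are palindromes that read CCGG, any 2 bases and again CCGG, and so are found alike on both strands. This motif was found within 500 bases before the start codon in 16 of 6000 genes searched (0.267%). The sites of LEU2 and of the 3 motif genes called lower (LEU1, BAT1 and GDH1) are shown because these genes are among those called. The sites of BAP2, ILV2 and ILV5, which were not called, are shown for comparison as further Leu3 targets with the motif. They are given 5′ to 3′ on the strand of the gene, from RefSeq R64, with the motif in capitals.
LEU1 (chrVII:478850-478879, minus strand): aacgaaaattCCGGGACCGGcgaaatttgc
BAT1 (chrVIII:517375-517404, plus strand): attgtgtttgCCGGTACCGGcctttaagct
GDH1 (chrXV:1043427-1043456, minus strand): aaccaatgcgCCGGAACCGGcccatgcatt
LEU2 (chrIII:91116-91145, plus strand): ggtgagagcgCCGGAACCGGcttttcatat
BAP2 (chrII:376057-376086, minus strand): ttttgtgggaCCGGAACCGGcatccacatt
ILV2 (chrXIII:483606-483635, plus strand): ccggagcctgCCGGTACCGGcttggcttca
ILV5 (chrXII:839611-839640, minus strand): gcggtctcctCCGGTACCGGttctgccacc
A match is a description of the sequence and not evidence of binding in these cells.

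The 6 samples held 16967873 to 18022156 fragments each, as recovered from TPM and gene length. MFA1, MFA2, STE2 and the other a-cell genes summed to 6960 to 8381 TPM per sample and α-cell genes to 28.4 to 39.3 TPM. URA3 and MET17, the gene deleted in met15∆0, were listed at 0 in all 12 samples of the set. HIS3 was not at 0, as described below. Within the groups, samples split by the GC content of genes: expression relative to the mean of the 12 samples fell with GC content in yox1-9A replicates 1 and 2 and double mutant replicate 1, and rose in the other 3 samples. The slope of yox1-9A replicate 1 was only -0.0051 log2 units per percent GC, against -0.0216 and -0.0215 for the other 2 falling samples. The sides were set from the same expression values that were then compared, and not from a separate measure. Because of the split, results were also computed among the samples of each side. On each side, 1 of the groups had a single sample, so values within a side carry no spread for that group.

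Expression was compared with limma on log2(TPM + 1), which understates the change of genes at a few TPM, with two-sided p-values and a Benjamini-Hochberg adjustment across the 6316 genes. In RNA from whole cultures, fewer cells that express a gene and less RNA per cell cannot be told apart. At an adjusted p below 0.1, 14 genes were lower (0.222% of genes tested) and 8 were higher (0.127%) in yhp1-13A yox1-9A than in yox1-9A, together 0.348%. At an unadjusted p below 0.05 there were 94 lower and 169 higher genes. Samples of both groups did not overlap for any of the 22 called genes, whereas all double mutant samples lay below all yox1-9A samples for 160 of the genes tested (2.53%) and above for 284 (4.5%). The median log2 difference over all tested genes was -0.04, with 59.5% of them below 0. For 7 of the 22 called genes the fitted difference of log2(TPM + 1) was smaller than 1 in size. Among these 7, DCV1 (1.82 to 4.39 TPM) and YBL071C-B (7.48 to 3.56 TPM) still changed by more than 2-fold in mean TPM. The number of calls was below 22 whichever of the 6 samples was left out, which leaves 2 in its group. It was 10, 14 and 9 without yox1-9A replicates 1, 2 and 3, and 12, 10 and 15 without double mutant replicates 1, 2 and 3. LEU2, LEU1, OAC1, DIC1, HCM1, BUD31, HIS3, YFR012W-A and BAT1 were called whichever of the 6 samples was left out. For all 22 called genes the direction was the same among samples on each side of the GC split. As their samples did not overlap, this was fixed in advance and is no further support. Over all tested genes, 47.5% kept their direction on both sides.

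**Figure D1:**
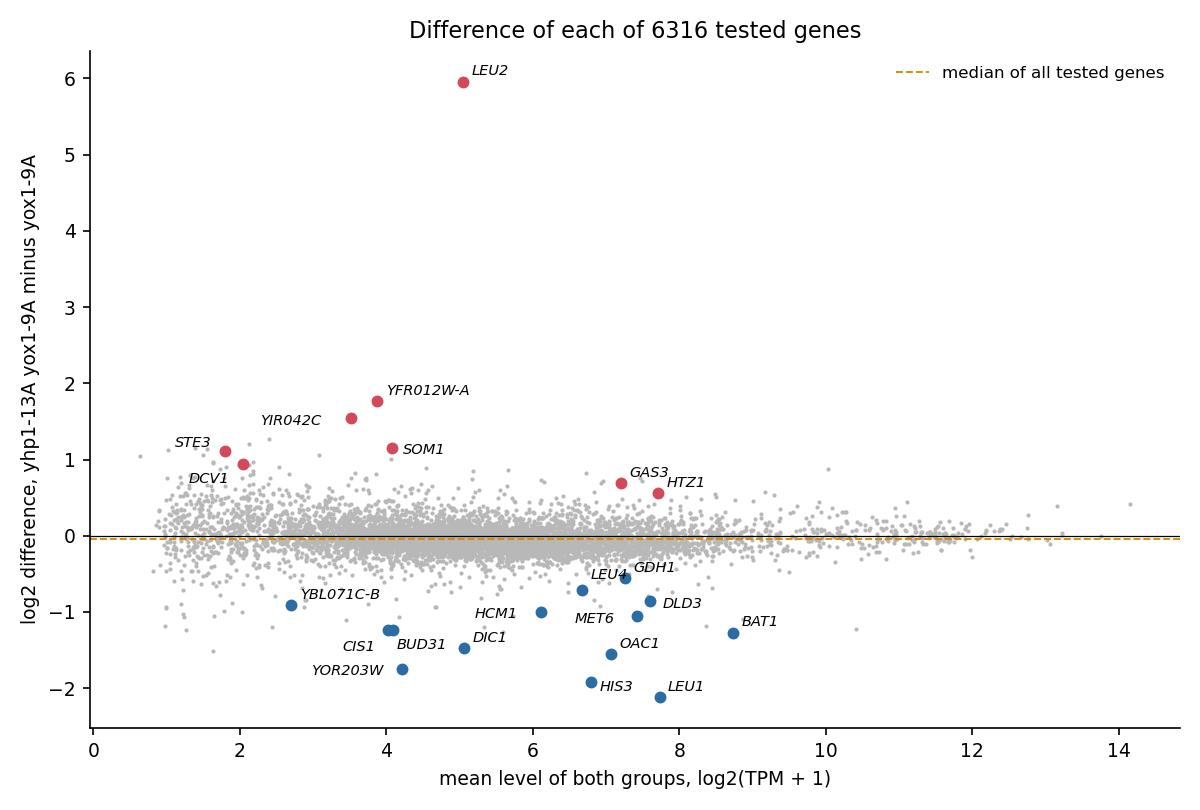
Log2 difference between yhp1-13A yox1-9A and yox1-9A (y axis) against the mean level of both groups (x axis, log2(TPM + 1)) for 6316 genes, with genes called lower in blue, genes called higher in red and other genes in grey. LEU2 stands apart at 5.96, while the called genes below 0 reach -2.12 and the median of all genes lies at -0.04.

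Neither YHP1 nor YOX1 passed the test. YHP1 (YDR451C, chromosome IV of R64, 1361120 to 1362181) was at 27.9, 29.1 and 32.6 TPM in yox1-9A and at 19.8, 17.8 and 19.1 TPM in the double mutant. All double mutant samples were below all yox1-9A samples. The log2 difference was -0.63 (SE 0.18), which did not pass (limma adjusted p = 0.46). With the side of the GC split as a term in the fit it was called, with a limma adjusted p of 0.027. In the pair that carries wild type YOX1, YHP1 was at 28.8 ± 7.13 TPM in wild type and 21.3 ± 3.83 TPM in yhp1-13A (SD, n = 3 each). YOX1 (YML027W, chromosome XIII, 221406 to 222563), which carries yox1-9A-3V5 in both groups, was at 79.4 ± 9.95 TPM in yox1-9A and 76.7 ± 13.5 TPM in the double mutant (SD, n = 3 each), and its samples overlapped. The neighbours of YHP1 did not pass the test either. RPS18A, which encodes a protein of the small ribosomal subunit, had a log2 difference of -0.03, and PPN1, which encodes a polyphosphatase, had one of -0.21.

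The largest rise was that of the marker gene LEU2, and the largest fall was that of LEU1, another gene of leucine synthesis. LEU2 (YCL018W, chromosome III, 91324 to 92418) encodes isopropylmalate dehydrogenase. It had 1 fragment in each yox1-9A sample, which is 0.045, 0.0438 and 0.0433 TPM, and stood at 58.7, 64.9 and 68.7 TPM in the double mutant. From 3 and 4594 fragments in all, the ratio for equal depth was 1481, with an exact 95% interval from 506 to 7182 that covers counting error only. The fitted log2 difference of 5.96 (SE 0.14, limma adjusted p = 1.5e-10) depends on the added 1 TPM. NFS1, the gene next to the LEU2 locus, was at 77.0 and 75.7 TPM on average and its samples overlapped.

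LEU1 (YGL009C, chromosome VII, 476313 to 478652) encodes isopropylmalate isomerase, whose product Leu2 uses. It was at 393, 325 and 315 TPM in yox1-9A and at 89.2, 64.8 and 82.6 TPM in the double mutant. The highest double mutant sample lay far below the lowest yox1-9A sample. LEU1 had the largest fall of all genes tested, by 2.12 on the log2 scale (SE 0.15, limma adjusted p = 2.7e-05). OAC1 (YKL120W, chromosome XI, 217344 to 218318) encodes a mitochondrial carrier of oxaloacetate. It was at 182, 190 and 226 TPM in yox1-9A and at 64.9, 68.6 and 66.7 TPM in the double mutant, a fall of 1.56 on the log2 scale (SE 0.13, limma adjusted p = 0.00014). BAT1 (YHR208W, chromosome VIII, 517532 to 518713), the mitochondrial branched-chain aminotransferase, was at 639, 528 and 639 TPM in yox1-9A and at 232, 215 and 305 TPM in the double mutant. Its samples were again fully separated, and it fell by 1.27 on the log2 scale (SE 0.18, limma adjusted p = 0.0093).

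Smaller falls were found for LEU4 and GDH1. LEU4 (YNL104C, chromosome XIV, 424895 to 426754), the main α-isopropylmalate synthase, was at 136, 109 and 130 TPM in yox1-9A and at 70.4, 71.7 and 87.0 TPM in the double mutant. GDH1 (YOR375C, chromosome XV, 1041678 to 1043042) encodes the glutamate dehydrogenase that makes glutamate from ammonium. It was at 183, 177 and 185 TPM in yox1-9A and at 117, 115 and 138 TPM in the double mutant. Neither gene had overlapping samples, yet both lay near the threshold. The log2 differences were -0.71 (SE 0.14, limma adjusted p = 0.097) for LEU4 and -0.56 (SE 0.10, limma adjusted p = 0.045) for GDH1. LEU4 lost its call when any of the 6 samples was left out (limma adjusted p up to 0.56). GDH1 kept it without double mutant replicate 3 but not without any other sample (limma adjusted p up to 0.29).

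**Figure D2:**
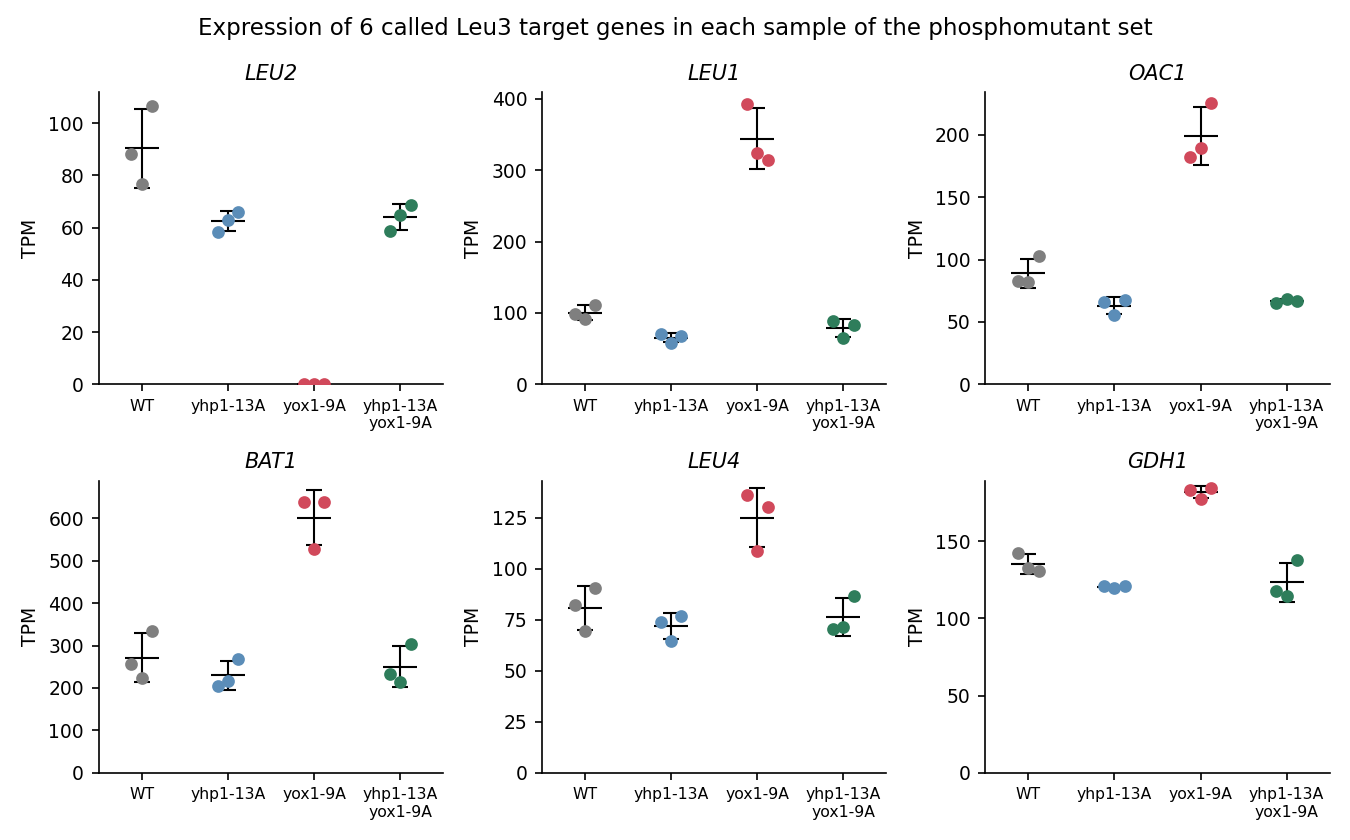
Expression (y axis, TPM from 0) of the 6 called Leu3 target genes in each of the 12 samples of the phosphomutant set, by strain (x axis), with points for samples, horizontal lines for means and bars for SD (n = 3). The yox1-9A samples are near 0 for LEU2 and above the samples of every other strain for the other 5 genes.

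The list of textbook Leu3 targets had 10 genes, all of which were tested. Of the 9 other than LEU2, 5 were called lower and 0 higher, where 0.222% of all tested genes were called lower. All 9 had a negative log2 difference, from -2.12 to -0.34, as did 59.5% of all tested genes. Their median was -0.70 against -0.04 for all tested genes. It was -0.61 among samples on the side of the GC split where expression fell with GC content and -0.83 on the other. The 4 targets that did not pass over all genes were BAP2, MAE1, ILV2 and ILV5. BAP2, a permease for branched-chain amino acids, was at 258 ± 50.2 TPM in yox1-9A and 157 ± 9.86 TPM in the double mutant (SD, n = 3 each), and its samples did not overlap. MAE1, the mitochondrial malic enzyme, was at 107 ± 13.1 and 69.1 ± 2.42 TPM, likewise without overlap. ILV2, which encodes the acetolactate synthase of isoleucine and valine synthesis, was at 222 ± 11.9 and 168 ± 18.5 TPM. Samples overlapped only for ILV5, the next enzyme of that pathway, at 1251 ± 229 and 978 ± 35.2 TPM. The limma adjusted p of these 4 genes was between 0.34 and 0.99. With the side of the GC split as a term, BAP2 and MAE1 were called (limma adjusted p = 0.027 each).

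Not every gene of the pathway was called lower. LEU9, the second α-isopropylmalate synthase, was at 129 ± 14.3 TPM in yox1-9A and 115 ± 11.96 TPM in the double mutant (SD, n = 3 each), with overlapping samples and a log2 difference of -0.17 (SE 0.14). Of the 7 genes of isoleucine and valine synthesis, only BAT1 was called lower, where 0.222% of all tested genes were, and the list median was -0.34. ILV3, the dihydroxyacid dehydratase, was at 372 ± 53.2 and 238.7 ± 19.98 TPM without overlap (log2 difference -0.63, SE 0.14, limma adjusted p = 0.15). ILV1, ILV6 and BAT2 had log2 differences of 0.10, -0.08 and -0.04. The 16 genes with the Leu3 motif included LEU2 and 3 called lower (LEU1, BAT1 and GDH1), where 0.222% of all tested genes were called lower. Of the other motif genes, chosen here after their values were seen, DRE2, an iron-sulfur protein, was at 177 TPM in yox1-9A and 126 TPM in the double mutant (log2 difference -0.50, SE 0.12, limma adjusted p = 0.19), whereas GAT1 and MGM101 both had a log2 difference of 0.00. OAC1 and LEU4 had no match in this window, which says only that these letters are not in it.

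The difference above was also set against that of yhp1-13A and wild type, as the interaction of both mutations. No sample is shared by these 2 differences. LEU2 is present in both strains of the second pair, so an interaction at LEU2 follows from how the strains were built, and for other genes the marker and the alleles cannot be told apart. The second pair also differs in the 3V5 tag of YOX1, and YOX1 was at 83.4 ± 17.8 TPM in wild type and 36.2 ± 2.22 TPM in yhp1-13A (SD, n = 3 each; log2 difference -1.16, limma adjusted p = 0.15). Limma called 2 of 6316 genes (0.0317%), LEU2 with an interaction of 6.48 (SE 0.20, limma adjusted p = 3.2e-09) and LEU1 with -1.51 (SE 0.21, limma adjusted p = 0.038). At an unadjusted p below 0.05, 110 genes passed (1.74%). The LEU1 call was lost without yox1-9A replicate 1 or 2 (limma adjusted p = 0.16 and 0.11). In the second pair, LEU1 was at 100 ± 10.5 TPM in wild type and 65.4 ± 6.44 TPM in yhp1-13A (SD, n = 3 each), a log2 difference of -0.61. The comparison of yhp1-13A with wild type had 0 called genes. OAC1 came next among the leucine genes with an interaction of -1.07, which did not pass (limma adjusted p = 0.15).

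The levels in all 4 strains place most of the called differences in yox1-9A. For 18 of the 22 called genes, the 3 yox1-9A samples lay outside the range of the other 9 samples of the set, above it for 11 and below it for 7. Over all tested genes, yox1-9A stood apart in this way for 2.12%. The double mutant stood apart from the other 9 samples for 3 called genes (YFR012W-A, STE3 and YBL071C-B) and for 0.301% of tested genes. These counts use the samples that made the calls and are a description. LEU1 was at 344 ± 42.7 TPM in yox1-9A against means of 65.4 to 100 TPM in the other 3 strains. BAT1 was at 601.8 ± 63.98 TPM against 230 to 271 TPM. Of the 4 strains, yox1-9A is also the only one without LEU2.

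The deletion set gave a pair in which LEU2 was likewise added, with a change from KanMX to NatMX at YOX1 besides, measured in other samples and in a table scaled on its own. Between yox1Δ and yhp1Δ yox1Δ, 22 of 6311 genes were lower (0.349%) and 14 were higher (0.222%), together 0.57%, at a limma adjusted p below 0.1. LEU2 rose and LEU1, OAC1, BAT1, GDH1 and LEU4 fell in this pair too. These 6 genes are 27.3% of the 22 genes called here and 16.7% of the 36 called there. LEU1 was at 329 ± 40.1 TPM with yox1Δ alone and at 57.3 ± 2.89 TPM with both deletions (SD, n = 3 each), a change of -2.49 in log2 (SE 0.11, limma adjusted p = 7.8e-08). BAT1 was at 725 ± 64.9 and 223 ± 13.7 TPM. Of the 9 Leu3 targets other than LEU2, all 9 were called lower there, with a median of -0.88. ILV3, which was not called in the phosphomutants, was among the genes called in the deletion pair (log2 difference -1.03, limma adjusted p = 6.1e-05). The side-by-side values were not tested against each other, because the tables were scaled separately.

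**Figure D3:**
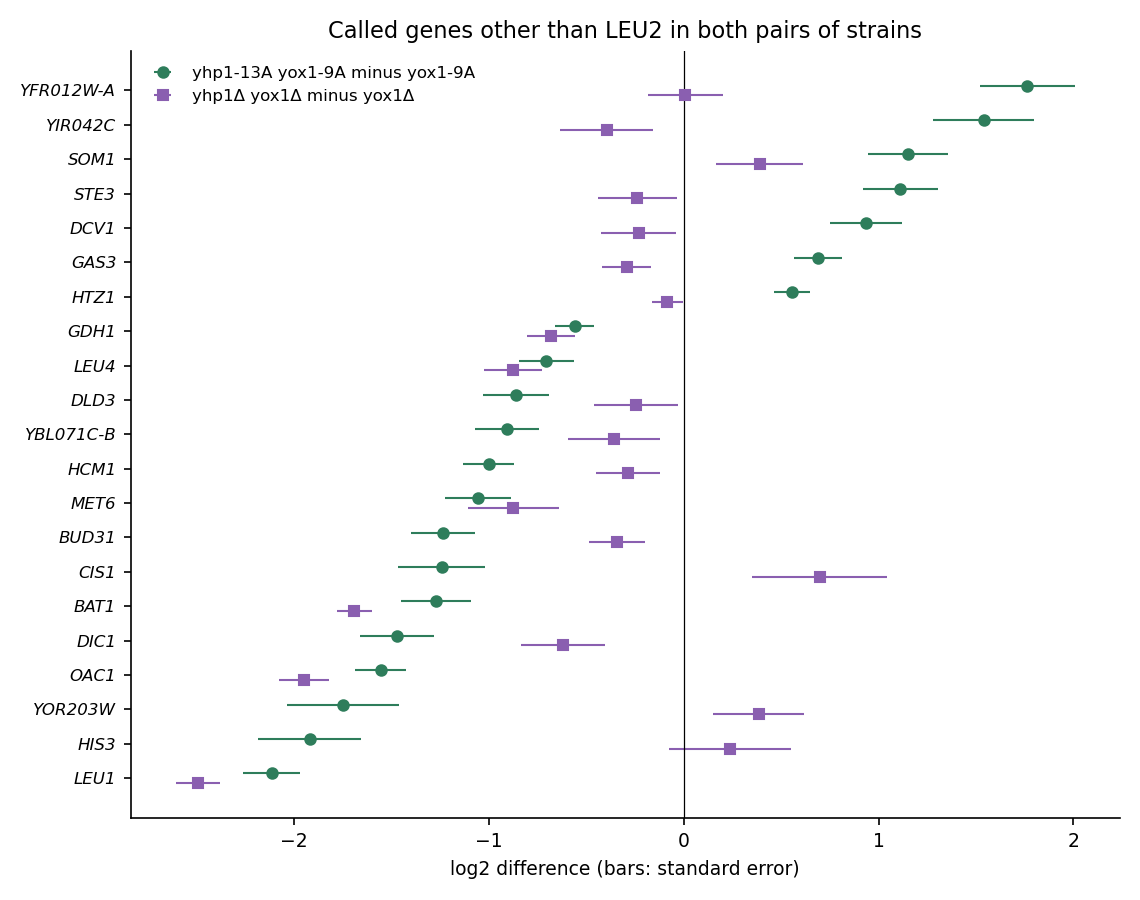
Log2 difference (x axis) of the called genes other than LEU2 (y axis) in yhp1-13A yox1-9A minus yox1-9A (green circles) and in yhp1Δ yox1Δ minus yox1Δ (purple squares), with bars for the standard error. LEU1, OAC1, BAT1, LEU4 and GDH1 lie below 0 in both pairs, whereas HIS3, YOR203W and the genes above 0 in the phosphomutants do not have a called difference in the deletion pair.

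The other 16 called genes were not called in the deletion pair. HIS3 (YOR202W, chromosome XV, 721946 to 722608), an enzyme of histidine synthesis, was counted although the labels name his3∆0. The study's strain list names the allele his3Δ1, and which bases of the gene gave reads was not analysed here. HIS3 was at 185, 226 and 115 TPM in yox1-9A and at 51.5, 44.2 and 37.0 TPM in the double mutant. The groups did not overlap, and the log2 difference was -1.92 (SE 0.26, limma adjusted p = 0.0091). Wild type and yhp1-13A were at 47.3 ± 12.8 and 39.6 ± 7.73 TPM, so yox1-9A was the strain that differed. The entry YOR203W, which had no match in the RefSeq annotation and adjoins HIS3 by its systematic number, moved in the same way, from 27.6 ± 5.26 to 7.65 ± 2.34 TPM (log2 difference -1.75, limma adjusted p = 0.033). It lost its call without yox1-9A replicate 2 or 3 or double mutant replicate 1 (limma adjusted p up to 0.14). The annotated neighbours MRM1 and DED1 had log2 differences of -0.20 and -0.11. The other 6 genes of histidine synthesis on the list had log2 differences from -0.36 to 0.00, and 0 were called.

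A pair of adjacent genes on chromosome III fell together. HCM1 (YCR065W, 229310 to 231004) encodes a forkhead transcription factor of S phase. It was at 93.0, 84.9 and 97.0 TPM in yox1-9A and at 45.5, 46.2 and 43.9 TPM in the double mutant, a change of -1.002 in log2 (SE 0.13, limma adjusted p = 0.0081). BUD31 (YCR063W, 228318 to 228791), a splicing factor, was at 22.6, 19.8 and 23.1 TPM in yox1-9A and at 8.41, 7.26 and 10.7 TPM in the double mutant, a change of -1.24 in log2 (SE 0.17, limma adjusted p = 0.0091). Both genes had wild type and yhp1-13A levels close to those of the double mutant, at 45.4 and 46.0 TPM for HCM1 and 8.07 and 9.53 TPM for BUD31. RAD18 (YCR066W, 231500 to 232963), a ubiquitin ligase of DNA repair on the other side of HCM1, was at 32.7 ± 9.51 and 16.6 ± 5.03 TPM, with overlapping samples and a value of -0.93 in log2 (SE 0.27, limma adjusted p = 0.51). In the deletion pair HCM1 was at 52.3 ± 2.81 TPM in yox1Δ and 42.7 ± 3.54 TPM in the double deletion.

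DIC1 and MET6 fell as well. DIC1 (YLR348C, chromosome XII, 826977 to 827873), the dicarboxylate carrier of mitochondria, was at 42.0, 56.0 and 47.0 TPM in yox1-9A and at 17.9, 16.7 and 15.4 TPM in the double mutant (log2 difference -1.47, SE 0.19, limma adjusted p = 0.0081). MET6 (YER091C, chromosome V, 339864 to 342167), the methionine synthase, was at 295, 178 and 224 TPM in yox1-9A and at 110, 99.3 and 118 TPM in the double mutant. Its yox1-9A samples varied, and the log2 difference of -1.06 (SE 0.17, limma adjusted p = 0.032) lost its call without yox1-9A replicate 1 or 3 or double mutant replicate 1 or 2 (limma adjusted p up to 0.18). In the deletion pair MET6 was at 191 ± 53.9 and 100 ± 3.97 TPM, which did not pass (limma adjusted p = 0.22). MET6 was the only one of 19 genes of sulfate assimilation and methionine on the list to be called, where 0.348% of all tested genes were. Of the 19, 15 (78.9%) had a negative log2 difference, against 59.5% of all tested genes, with a median of -0.23 against -0.04. All double mutant samples were below all yox1-9A samples for 7 of the 19 (36.8%, against 2.53% of all genes tested) and above for 0.

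Falls of CIS1, DLD3 and the small open reading frame YBL071C-B were less stable. CIS1 (YLR346C, chromosome XII, 822287 to 822592) was at 22.9 ± 6.22 TPM in yox1-9A and 9.15 ± 2.87 TPM in the double mutant (SD, n = 3 each; log2 difference -1.24, limma adjusted p = 0.045). It was also lower in yhp1-13A, at 10.1 ± 0.289 TPM, than in wild type, at 20.8 ± 2.28 TPM. Its difference was -0.65 on one side of the GC split and -1.84 on the other, each resting on a single sample of 1 group. Its call was lost without yox1-9A replicate 1 or 3 or double mutant replicate 2 or 3 (limma adjusted p up to 0.23). DLD3 (YEL071W, chromosome V, 16355 to 17845), a dehydrogenase induced by the retrograde signal from mitochondria, was at 249 ± 35.2 and 136 ± 9.95 TPM (log2 difference -0.86, limma adjusted p = 0.083), and was not called without any one of the 6 samples. Of 10 genes of the retrograde response, DLD3 alone was called lower, where 0.222% of all tested genes were. All 10 had a negative log2 difference, as did 59.5% of all tested genes, with a median of -0.37 against -0.04. All double mutant samples were below all yox1-9A samples for 3 of the 10 (30%, against 2.53% of all genes tested) and above for 0. ACO1, the aconitase, was at 146 ± 29.2 and 80.5 ± 12.1 TPM (log2 difference -0.84, limma adjusted p = 0.15), and CIT2, the peroxisomal citrate synthase, at 111 ± 24.7 and 65.5 ± 7.61 TPM (log2 difference -0.73, limma adjusted p = 0.63). The median of the list was -0.20 on the side of the GC split where expression fell with GC content and -0.78 on the other. YBL071C-B (chromosome II, 89458 to 89556) was at 7.48 ± 0.617 TPM in yox1-9A, 3.56 ± 0.764 TPM in the double mutant and 7.38 and 8.24 TPM in wild type and yhp1-13A. It had as few as 6 fragments in a sample. It kept its call without double mutant replicate 3 but not without any other sample (limma adjusted p up to 0.33).

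Besides LEU2, 7 genes were called higher. HTZ1 (YOL012C, chromosome XV, 303579 to 303983), which encodes the histone variant H2A.Z, was at 174, 165 and 168 TPM in yox1-9A and at 246, 242 and 258 TPM in the double mutant. Wild type and yhp1-13A were at 246 ± 9.07 and 255 ± 17.7 TPM, so the 3 yox1-9A samples were below all others. The log2 difference of 0.56 (SE 0.09, limma adjusted p = 0.033) lost its call with each of the 6 samples left out (limma adjusted p up to 0.17). HTZ1 was the only called gene of 10 on the histone list, where 0.348% of all tested genes were called, and the list median was 0.14. GAS3 (YMR215W, chromosome XIII, 696796 to 698370), a cell wall protein of the Gas family, was at 112 ± 8.34 TPM in yox1-9A and 181 ± 16.6 TPM in the double mutant, against 167 and 175 TPM in wild type and yhp1-13A (log2 difference 0.69, limma adjusted p = 0.045). It too lost its call with each sample left out.

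**Figure D4:**
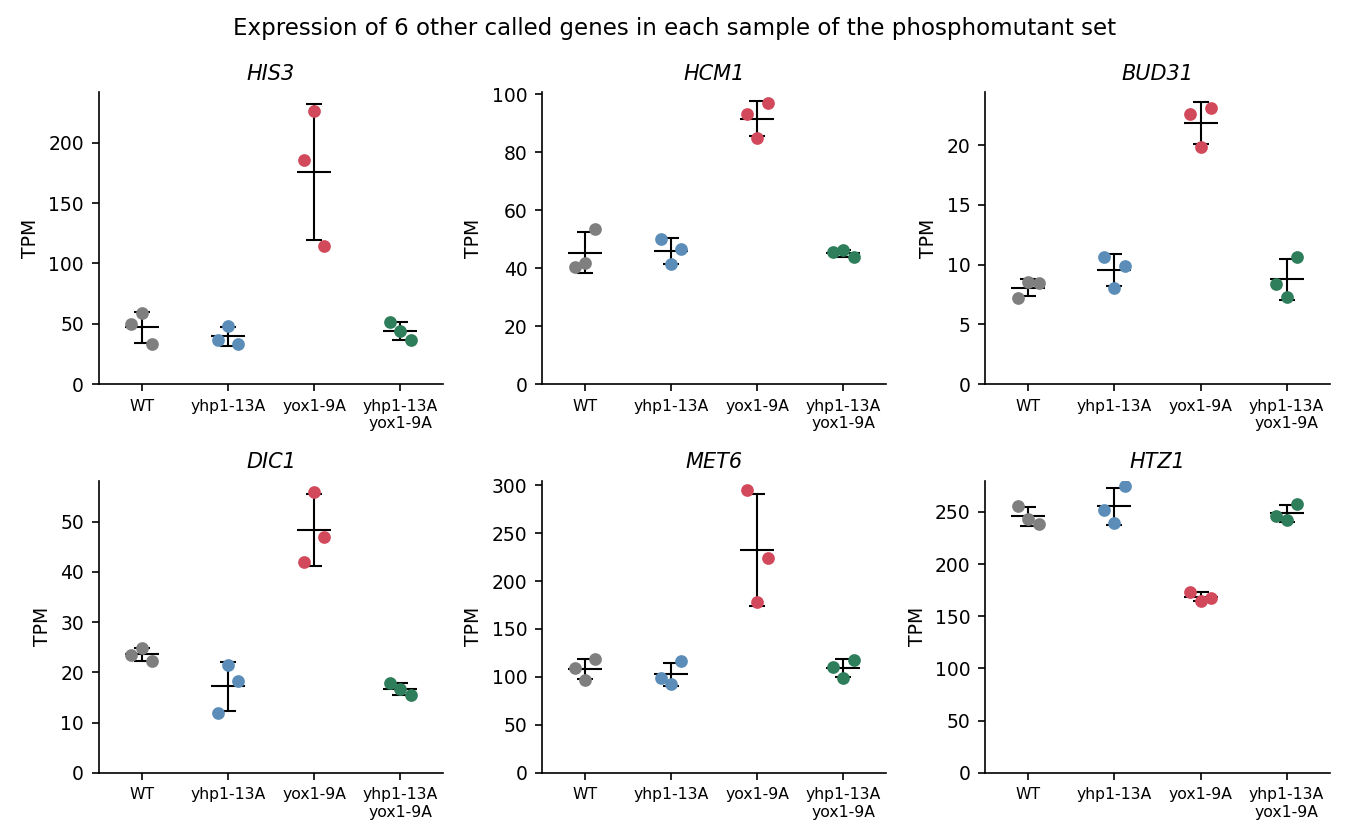
Expression (y axis, TPM from 0) of HIS3, HCM1, BUD31, DIC1, MET6 and HTZ1 in each of the 12 samples of the phosphomutant set, by strain (x axis), with points for samples, horizontal lines for means and bars for SD (n = 3). For each of these genes the 3 yox1-9A samples lie on one side of the other 9 samples, below them for HTZ1 and above them for the other 5.

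The other genes called higher were at low levels. YFR012W-A (chromosome VI, 169224 to 169310) was at 5.67, 7.17 and 4.36 TPM in yox1-9A and at 24.5, 19.0 and 21.4 TPM in the double mutant (log2 difference 1.76, SE 0.24, limma adjusted p = 0.0091). This short gene had as few as 8 fragments in a sample. The double mutant samples were the highest of all 12. Its neighbour DCV1 (YFR012W, chromosome VI, 167888 to 168496) rose from 1.82 ± 0.251 to 4.39 ± 0.45 TPM (log2 difference 0.94, limma adjusted p = 0.083), a call lost with each sample left out. YIR042C (chromosome IX, 435273 to 435983) was at 5.14 ± 2.68 and 15.8 ± 0.801 TPM (log2 difference 1.54, limma adjusted p = 0.035) and kept its call without yox1-9A replicate 2 but not without any other sample. STE3 (YKL178C, chromosome XI, 113215 to 114627), the receptor for a-factor on α cells, was at 1.33, 1.22 and 1.04 TPM in yox1-9A and at 3.54, 3.48 and 4.22 TPM in the double mutant (log2 difference 1.11, limma adjusted p = 0.043), and it was not called without any one of the samples. Of the other α-cell genes, MF(ALPHA)1 was too low to be tested. MF(ALPHA)2, which encodes α-factor, was at 7.53 ± 0.978 and 9.39 ± 0.636 TPM without overlap (log2 difference 0.29, SE 0.19, limma adjusted p = 0.99), and SAG1, the α-agglutinin, had a log2 difference of 0.05 with overlapping samples. SOM1 (YEL059C-A, chromosome V, 42400 to 42624), a subunit of a mitochondrial inner membrane peptidase, rose from 9.42 ± 0.954 to 22.5 ± 4.98 TPM (log2 difference 1.15, limma adjusted p = 0.045). Of the samples left out, only the removal of double mutant replicate 1 kept its call.

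The genes that Yhp1 and Yox1 repress showed few differences. The list used here holds 326 genes from the induced expression of the repressors in other samples, which may not be the study's whole list, and 322 of them were tested. SOM1 was called higher and 0 genes were called lower, where 0.127% and 0.222% of all tested genes were. The median log2 difference was -0.02 against -0.04 for all genes. At an unadjusted p below 0.05, 12 targets were lower (3.73%, against 1.49% of all genes tested) and 18 were higher (5.59%, against 2.68%). ECL1 had the lowest log2 difference of the list, at 241 ± 30.2 TPM in yox1-9A and 138.5 ± 12.8 TPM in the double mutant, without overlap (log2 difference -0.79, SE 0.16, limma adjusted p = 0.11). It was called lower with the side of the GC split as a term (limma adjusted p = 0.031) and by limma-voom (adjusted p = 0.076). DBF2, a kinase of the mitotic exit network, was at 30.1, 26.4 and 23.2 TPM in yox1-9A and at 24.7, 18.4 and 16.7 TPM in the double mutant. The samples overlapped, and the adjusted p was 0.99 (limma, log2 difference -0.41, SE 0.17). MCM5, a subunit of the replicative helicase, was at 20.9 ± 0.795 and 21.1 ± 2.15 TPM, while wild type was at 33.8 ± 1.98 TPM. MCM2 was at 20.9 ± 3.39 and 17.3 ± 3.71 TPM. PIG1, a regulator of glycogen synthesis, was at 4.08 ± 0.313 and 3.85 ± 0.158 TPM, against 7.70 ± 0.844 TPM in wild type. The secreted glycoprotein YGP1 was at 97.3 ± 33.3 and 79.2 ± 15.1 TPM, against 245 ± 30.2 TPM in wild type. For MCM5, PIG1 and YGP1, the samples of yox1-9A and the double mutant overlapped and both strains had means below that of wild type.

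The lists of cell cycle genes had 0 calls. Their medians were -0.06 for the 6 MCM2-7 genes, 0.00 for 8 origin licensing genes, -0.02 for 13 genes of the anaphase-promoting complex, -0.11 for 9 genes of the FEAR network, 0.02 for 11 genes of the mitotic exit network, -0.04 for 5 condensin genes and 6 B-type cyclin genes each, and -0.08 for 12 genes of G1 cyclins and Start. The median of all tested genes was -0.04. A list of 15 genes from those that the study chose on these samples, as lower in phosphomutants and higher in deletions, which may not be all of them, had a median of -0.26 and 0 calls here, and are not independent evidence of a direction. Among them, SPO24 was at 1918, 1332 and 2522 TPM in yox1-9A and at 879, 736 and 784 TPM in the double mutant (log2 difference -1.22, SE 0.31, limma adjusted p = 0.34), without overlap.

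No gene of oxidative phosphorylation passed the test. Of 34 genes on the list, 32 had a positive log2 difference, whereas 59.5% of all tested genes were below 0. The median was 0.23 against -0.04 for all genes. All double mutant samples were above all yox1-9A samples for 13 of the 34 (38.2%, against 4.5% of all genes tested) and below for 0. The median was 0.22 and 0.34 on the sides of the GC split where expression fell and rose with GC content. Of the 34, 30 were above 0 on both sides, as were 2460 of all 6316 tested genes. CYC1, the main form of cytochrome c, was at 88.8, 98.9 and 92.1 TPM in yox1-9A and at 141, 174 and 149 TPM in the double mutant. It had the largest difference of the list, at 0.72 (SE 0.15, limma adjusted p = 0.13), and was called with the side of the GC split as a term (limma adjusted p = 0.043). Wild type and yhp1-13A were at 143 ± 17.6 and 148 ± 28.8 TPM. CYT1, a subunit of the cytochrome bc1 complex, was at 42.6 ± 1.28 and 60.9 ± 11.1 TPM, and QCR2, a core subunit of the same complex, at 114 ± 3.94 and 145 ± 9.54 TPM. In the deletion pair the list had a median of -0.12 and 0 calls. Genes of the list can share regulators and are not independent of each other.

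**Figure D5:**
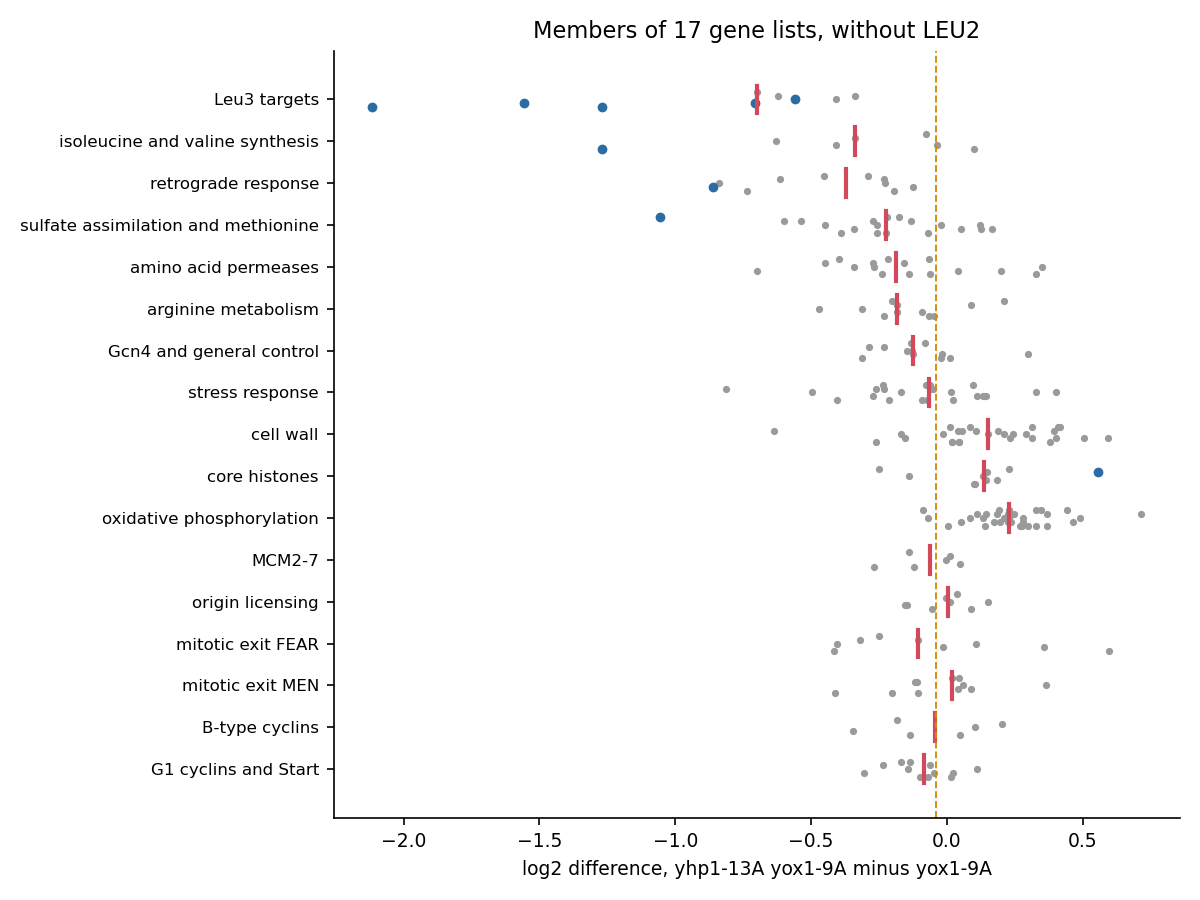
Log2 difference (x axis) of the tested members of 17 gene lists (y axis), without LEU2, with called genes in blue, other genes in grey, the list median as a red bar and the median of all tested genes as a dashed line. The Leu3 targets lie to the left with a median of -0.70, oxidative phosphorylation to the right with 0.23, and the lists of cell cycle genes around the dashed line.

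Other lists of amino acid supply held 0 called genes, but the one of histidine synthesis leaves out HIS3, which was called. The median was -0.19 for 16 amino acid permeases, which include the Leu3 target BAP2. Of the 16, 12 had a negative log2 difference (75%, against 59.5% of all tested genes). All double mutant samples lay below all yox1-9A samples for 6 of them (37.5%, against 2.53% of all genes tested) and above for 2 (12.5%, against 4.5%). The median was -0.18 for 11 genes of arginine metabolism and -0.13 for 12 genes of Gcn4 and general control. It was -0.14 for 6 genes of histidine synthesis and -0.02 for 9 genes of lysine synthesis. Samples lay fully below for 36.4% of the arginine genes and 16.7% of the Gcn4 genes, and fully above for 22.2% of the lysine genes. The 22 genes of the iron regulon had a median of -0.20, and the 19 genes of the phosphate regulon one of -0.08. The lowest value of the iron regulon was -1.18 for FIT2 (SE 0.48, limma adjusted p = 0.99). FIT2 was at 463 ± 253 TPM in yox1-9A and 196 ± 94.3 TPM in the double mutant, with overlapping samples. For cell wall genes the median was 0.15 over 29 genes, but this was -0.03 among samples where expression rose with GC content. Glycolysis (19 genes) and ribosomal proteins (138 genes) had medians of -0.02 and 0.01.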

How the data were processed

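RNA-seq of S. cerevisiae was analysed for the phosphomutant set of 12 samples, with the deletion set of 12 beside it. The labels name depletion of poly-A RNA and the methods name its purification. The authors aligned reads to R64-1-1 with STAR 2.5.3a and counted exon fragments with featureCounts 1.5.2, per the labels and methods, and whether strand was used is not given in the sources used here. The deposited tables hold TPM that the authors computed per sample for 7126 genes. The number of sample columns not used was 0.

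The filter of a mean of at least 1 TPM left 6316 genes in this set and 6311 in the deletion set. Groups came from the sample titles. The 4 groups of a set were fitted in 1 model of log2(TPM + 1) with limma 3.58.1 in R 4.3.3, with no covariate and eBayes with a trend, and called at a Benjamini-Hochberg adjusted p below 0.1. For 1 gene, the smallest exact permutation p of 3 against 3 samples is 0.1, so none is given. Nothing in the labels says that replicates were separate cultures, so p-values measure the spread between these samples. Fragments were recovered from TPM times length, which was whole within 0.01 for at least 99.9% of values. Across genes, r between same-group samples was 0.975 to 0.989, and no such samples agreed within counting noise (chi-squared over its degrees of freedom 40 to 133). Gene positions and promoters came from RefSeq R64, to which 6048 identifiers matched. The fit was tested on simulated data.

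Named genes were those at the altered loci and their neighbours, every called gene, the 10 largest rises and falls with separated samples, 10 genes the study names, and members of each list with the smallest p. Neighbours of called genes were added after seeing the data, as were the values within each side of the GC split. The members, lists and tests were chosen with earlier results of these data known. Where a sample was left out, the remaining 2 of its group were assumed to vary like the other groups. Alternatives were a pseudocount of 0.1, no filter, a mean of at least 10 TPM, median-of-ratios scaling, a replicate block, a fit of the 6 samples only, eBayes without a trend or robust, limma-voom on recovered fragments, the side of the GC split as a term, an adjusted p below 0.05, and each of the 6 samples left out.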

Additional observations from a re-analysis of the deposited data

Results flagged for a closer look

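The difference between yhp1-13A yox1-9A and yox1-9A was not the same as that between yhp1-13A and wild type for LEU2 and LEU1, by the interaction term of the limma fit over all genes. The interaction was 6.48 for LEU2 (limma adjusted p = 3.2e-09) and -1.51 for LEU1 (limma adjusted p = 0.038). At LEU2 this follows from how the strains were built, since only yox1-9A lacks the gene, and is not an effect of yhp1-13A. At LEU1 the marker and the alleles cannot be told apart, and the call was lost without yox1-9A replicate 1 or 2 (limma adjusted p = 0.16 and 0.11). Groups of 3 samples were not searched for outlying samples.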

How the results depend on the processing

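All 22 called genes kept their direction under each of the 17 alternatives that tested them, and 9 were called under each. As their samples did not overlap, leaving out a sample or changing the pseudocount, filter or eBayes setting could not have reversed a direction. The counts of calls moved more. Same-numbered samples of both groups did not all deviate together (residual correlations 0.45, -0.22 and 0.54), so the numbers were not taken to pair the samples. The replicate block gave 65 calls (36 lower, 29 higher) and 14 interactions. The side of the GC split as a term gave 89 calls (32 lower, 57 higher) and 16 interactions. A fit of the 6 samples only gave 10 calls (8 lower, 2 higher) and cannot give an interaction, which needs the other groups. Named genes that were not called gained a call with the replicate block (RAD18, BAP2, MAE1, ILV2, ILV3, ACO1, CIT2, CYC1, ECL1 and SPO24) and with the GC term (YHP1, RAD18, BAP2, MAE1, ILV3, ACO1, CYC1, ECL1 and SPO24). Limma-voom gave 13 higher genes and no filter gave 6 interactions. Median-of-ratios scaling gave 10 lower and 8 higher genes. Leaving out single samples gave 9 to 15 calls, 7 to 13 lower, 2 to 4 higher, and 1 to 3 interactions. The median of oxidative phosphorylation was 0.34 among samples whose expression rose with GC content. Among uncalled genes, the sign changed for YOX1 (log2 differences from -0.1885 to 0.055 with single samples left out), MCM5 (-0.0633 to 0.0736) and YGP1 (-0.4072 to 0.0019). The causes were not tested. The median standard error of a log2 difference was 0.19. The smallest difference called was 0.56 for HTZ1, with a standard error of 0.09. YHP1, at -0.63 with a standard error of 0.18, was not called in the main fit. With 3 replicates, a gene of typical standard error thus needed a difference well above that error to be called.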

Other observations

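Among uncalled genes with separated samples, the tryptophan tRNA gene tW(CCA)K had the largest negative log2 difference. It was at 5.48, 2.00 and 3.29 TPM in yox1-9A and at 0.644, 1.21 and 0 TPM in yhp1-13A yox1-9A (log2 difference -1.51, SE 0.51, limma adjusted p = 0.70). At this length and level its values rest on few fragments. Its near-identical copies elsewhere in the genome make the assignment of its reads uncertain. The 146 tested tRNA genes had a median log2 difference of 0.03 and 0 called genes.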
